A study of Arabidopsis thaliana with 48 samples.

Results

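Leaves of *flc* plants were compared with leaves of wild-type (WT) *Arabidopsis thaliana* plants after a short exposure to long days (LDs). RNA levels were read on AGRONOMICS1 tiling arrays, and the comparison rests on 6 of the 48 arrays in the series, chosen by their titles: 3 arrays of *flc* and 3 of WT. Per the study's methods, the WT was *SVP FLC FRI*, in the Columbia background with an active *FRIGIDA* (*FRI*) allele that keeps *FLC* transcription high, and the mutant was *SVP flc-3 FRI*, obtained by crossing the loss-of-function *flc-3* line to the same *FRI* source, so that both groups carried functional *SVP* and *FRI*. Seedlings spent 2 weeks in short days (SDs) followed by 2 LDs, and leaves were taken at Zeitgeber 8, 8 h after dawn. The 3 arrays of a group came from separate biological replicates, and RNA of whole leaves was measured, so fewer cells of a type and less RNA per cell cannot be told apart in any result. For comparison, the same contrast was read in SD leaves, in LD apices, in SD apices and in LD leaves of the *svp-41* background (6 arrays each). The last of these set the double mutant *svp-41 flc-3 FRI* against the single mutant *svp-41 FLC FRI*. In LD leaves *flc* was also set directly against this *svp* single mutant (3 arrays), and *svp* and the double mutant were each set against WT.

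FLC is a MADS-box transcription factor that represses flowering, and it can bind DNA in a complex with SVP, another MADS-box repressor. Genes repressed by FLC and SVP include *FT*, the gene of the mobile flowering signal that long days induce in leaves through CONSTANS, and *SOC1*, a MADS-box gene that promotes flowering. Active *FRI* raises *FLC*, which delays flowering until cold has silenced *FLC*.

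Values are log2 expression levels, so a difference of 1 is a 2-fold change, and a change is followed by its standard error (SE) after ±. Array medians over the whole series lay between 4.27 and 4.38, and the 3 arrays of a group correlated across genes at r from 0.986 to 0.991 in WT and from 0.989 to 0.991 in *flc*. The 6 leaf markers, all genes of photosynthesis, were among the highest values of the arrays, with WT means between 11.57 (*SBPASE*) and 13.50 (*CAB3*), and changes from -0.12 to 0.07. The 17 markers of meristem, floral organs and root had WT means between 2.51 (*SEP1*) and 5.66 (*SCR*), with the meristem genes *WUS* and *CLV3* at 3.27 and 3.03, and 0 of them were called. Of the 3 measured markers of phloem companion cells, where *FT* is made, *SUC2* changed by 0.04 and *OPS* by 0.09, and *NAKR1* by 0.47 (adjusted p = 0.000719), which is below the 2-fold limit. Whether this shift had a part in other changes was not tested. WT replicate 1 stood apart from the other WT arrays: 155 of the 31004 genes were more than 1 unit lower on it than on both other WT arrays, against 20 for replicate 2 and 32 for replicate 3. Among the genes later called higher in *flc*, WT replicate 1 was the lowest WT array for 137, replicate 2 for 30 and replicate 3 for 59, and the part of this array in the rises was not tested beyond leaving it out.

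The mutated gene was examined first. *FLC* (AT5G10140) read 8.68, 8.6 and 8.40 on the 3 WT arrays and 5.62, 5.86 and 5.60 on the 3 *flc* arrays, so the groups stood far apart. The mean fell from 8.56 ± 0.14 to 5.69 ± 0.14 (SD, n = 3), a drop of 2.87 ± 0.14 (SE) or 7.3-fold, with an adjusted p of 9.57e-17. *SVP* (AT2G22540) read 8.07, 8.33 and 8.46 in WT and 8.22, 8.53 and 8.59 in *flc*. Its groups overlapped and its change of 0.16 ± 0.11 did not pass the test (adjusted p = 0.579). The 5 *FLC* paralogues *MAF1* to *MAF5*, which also delay flowering, changed by between -0.05 (*MAF1*) and 0.35 (*MAF5*), and none was called. Among the 50 measured loci on each side of *FLC* in locus order, 0 other genes were called.

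A call required a change above 2-fold together with an adjusted p below 0.01 in limma. In *flc* leaves 257 genes were called, 226 higher and 31 lower, which is 0.829% of the 31004 genes tested (0.729% higher and 0.1% lower). Rises therefore made up 87.9% of the calls. The median called rise was 1.38 and the median called fall -1.15, 33 genes rose and 4 fell more than 4-fold, and the median change of all genes was -0.02. For 255 of the called genes the 3 *flc* arrays all lay on one side of the 3 WT arrays. The counts of list members given below stand against these shares of all genes. The lists and their members were chosen with earlier results of these data known, so these counts carry no test. Over all genes the groups did not overlap for 16.3%. The count was 191 with the 24 leaf arrays fitted alone and 49 with the 6 arrays fitted alone. With other fold criteria it was 889 without a limit on the fold and 13 when the change itself had to exceed 2-fold by limma's treat test. It ran from 213 (without WT replicate 1) to 276 (without *flc* replicate 1) when single arrays were left out.

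**Figure D1:**
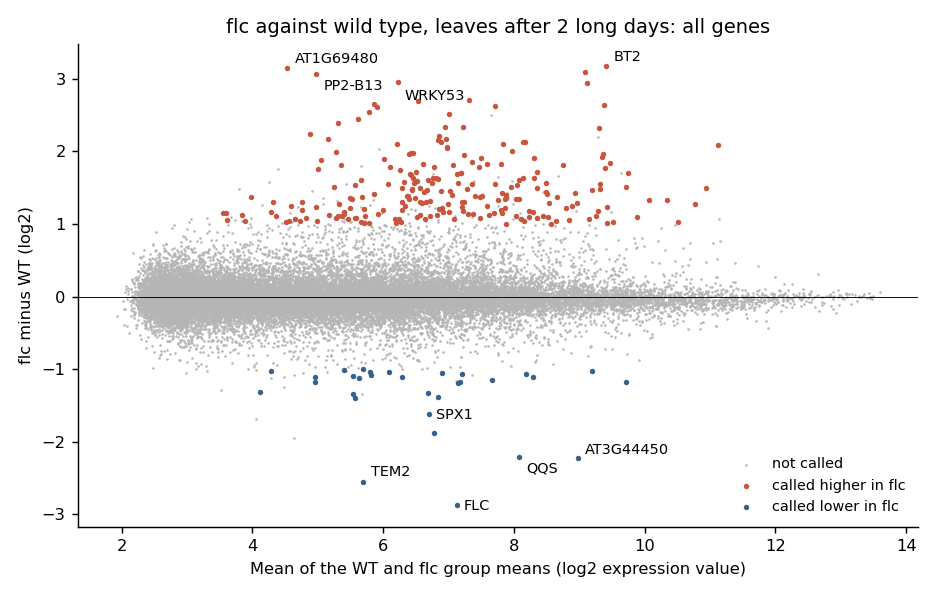
Change between *flc* and WT in LD leaves (log2, vertical axis) against the mean of the 2 group means (log2, horizontal axis) for all genes, with the 226 genes called higher in red, the 31 called lower in blue and the rest in grey. *BT2* had the largest rise (3.18) and *FLC* the largest fall (-2.87) among called genes.

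Of 15 genes that promote flowering, 1 was called. *SOC1* (AT2G45660) read 5.45, 5.42 and 5.84 in WT and 7.33, 7.48 and 6.94 in *flc*, with every *flc* array above every WT array. It rose by 1.68 ± 0.13 or 3.21-fold (adjusted p = 3.71e-11). *FT* (AT1G65480), the leaf-made signal, read 2.43, 2.89 and 2.70 in WT and 3.45, 2.97 and 3.16 in *flc*, all below the array medians. The *flc* arrays lay above the WT arrays, yet the change of 0.52 ± 0.16 was under the fold limit and its adjusted p was 0.043. *SPL4*, a SQUAMOSA-promoter-binding factor that acts downstream of *FT* and *SOC1*, went from 3.87 to 4.55 (change 0.68, adjusted p = 0.0029), also under the fold limit. The median change over the 15 promoters was 0.14. *AP1* and *LFY*, which mark floral commitment, changed by 0.14 and 0.06, and *TSF*, the close homologue of *FT*, by -0.06.

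Among the AP2-like and RAV factors, which repress *FT*, calls were made in both directions. *TEM2* (AT1G68840, listed as *RAV2* in the reference annotation) read 5.50, 7.76 and 7.66 in WT and 4.26, 4.58 and 4.44 in *flc*. The *flc* arrays were below all WT arrays, but WT replicate 1 was far nearer to them than the other WT arrays. *TEM2* fell by 2.55 ± 0.37 (adjusted p = 1.68e-05), and by 3.27 without WT replicate 1. Its relatives rose: *TEM1* (AT1G25560) went from 7.48, 8.07 and 7.57 to 8.85, 8.96 and 8.81, a change of 1.16 ± 0.27 (adjusted p = 0.00615), and *RAV1* from 7.80, 8.2 and 8.18 to 8.86, 9.20 and 9.13, a change of 1.00 ± 0.23 (adjusted p = 0.00449). Both calls were near the limit, and each was lost when any of 5 of the 6 arrays was left out (adjusted p up to 0.0449 for *TEM1* and 0.0399 for *RAV1*). The AP2-like members *TOE1*, *TOE3* and *SNZ* changed by -0.74, -0.48 and -0.57, none of them called. Over the 9 members 2 were called higher and 1 lower, with a median change of -0.48.

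**Figure D2:**
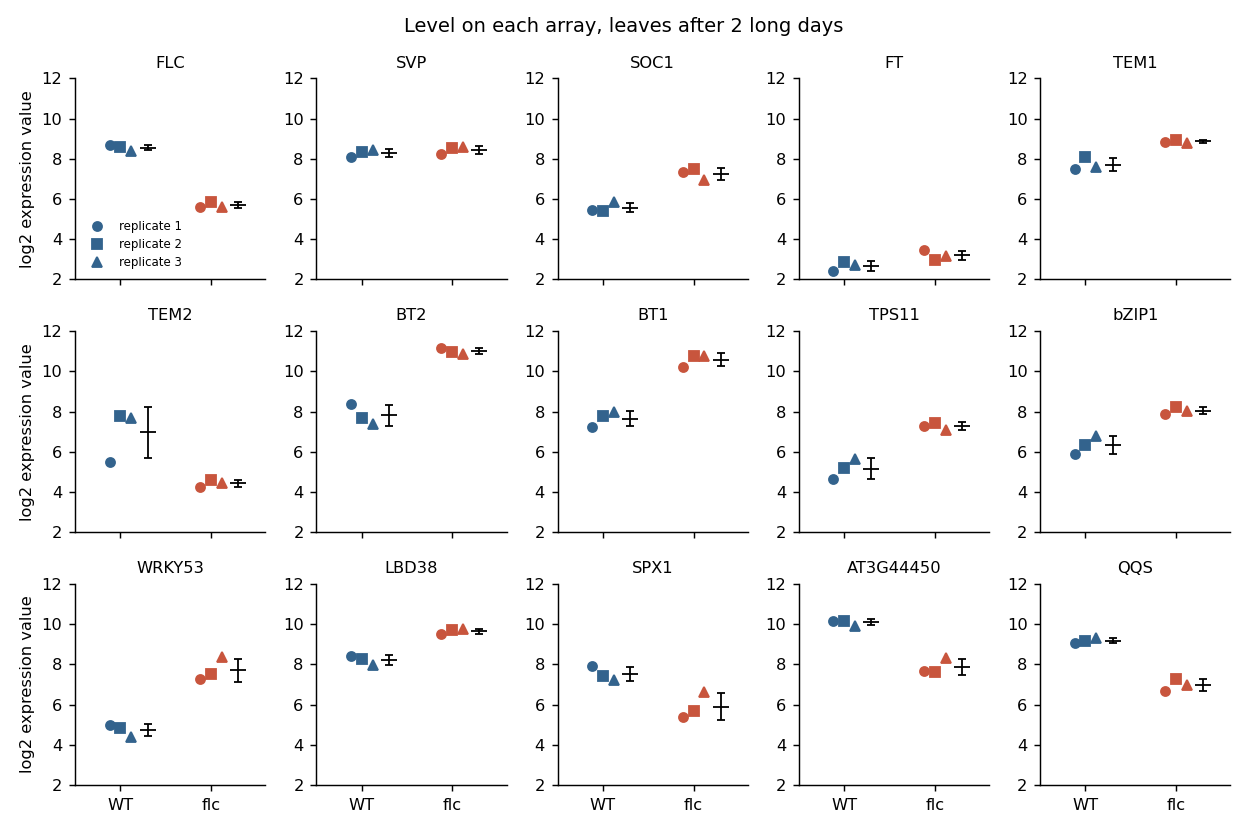
Level of 15 genes on each of the 6 arrays (log2 expression value, vertical axis), with WT in blue, *flc* in red, a symbol per replicate number, and the mean with its SD (n = 3) in black. *FLC* and *TEM2* were lower and *SOC1*, *BT2* and *WRKY53* higher on every *flc* array, while *SVP* overlapped. For *BT2* and *WRKY53* such a separation was a condition of their choice.

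In the photoperiod pathway 4 of 16 genes were called, all lower, where 0.1% of all genes were called lower. The median change of the list was -0.06. *CDF1* and *CDF3* encode DOF factors that repress *CONSTANS* and *FT*. *CDF3* read 7.53, 7.87 and 7.91 in WT and 5.92, 6.67 and 7.19 in *flc*, a fall of 1.18 ± 0.24 (adjusted p = 0.00124). *CDF1* read 5.61, 6.46 and 6.17 in WT and 4.67, 4.93 and 5.37 in *flc*, a fall of 1.09 ± 0.24 (adjusted p = 0.00332). Both sets of arrays were separate, but the *CDF3* call was lost without *flc* replicate 1 or WT replicate 2 (adjusted p up to 0.0329) and the *CDF1* call without any of 4 arrays (up to 0.0482). The remaining pair, AT3G44450 and AT3G52740, entered the list under the names *BIC2* and *BIC1*. They carry no gene symbol in the reference used here. AT3G44450 dropped from 10.18, 10.17 and 9.91 in WT to 7.66, 7.61 and 8.32 in *flc*, a fall of 2.22 ± 0.22 (adjusted p = 7.49e-09). AT3G52740 dropped from 7.45, 7.46 and 7.15 to 5.71, 5.89 and 6.47, a fall of 1.33 ± 0.18 (adjusted p = 4.96e-06). *CO* itself was low in both groups (3.69 and 3.92), and the blue-light receptor gene *CRY2* changed by 0.60 (adjusted p = 0.000243), below the fold limit. None of the 15 circadian clock genes was called, and their median change was -0.03.

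Gibberellins promote flowering and growth. Of 23 genes of their synthesis and signalling, 1 was called: *GA3OX1*, whose enzyme makes the active hormone, read 6.03, 6.15 and 5.82 in WT and 7.14, 7.49 and 6.75 in *flc*. It rose by 1.12 ± 0.18 (adjusted p = 3.69e-05), and by 0.96, under the fold limit, without *flc* replicate 2. The receptor genes *GID1A*, *GID1B* and *GID1C* changed by 0.34, 0.50 and 0.57, and *RGL2*, a DELLA repressor of the response, by -0.77 (adjusted p = 3.66e-05), all under 2-fold. The list's median was 0.05.

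The BT genes were among those with the largest rises. Their proteins combine a BTB and a TAZ domain and act as scaffolds of ubiquitin ligases, and *BT2* is known to be repressed by sugars. *BT2* (AT3G48360) read 8.40, 7.69 and 7.37 in WT and 11.16, 10.96 and 10.87 in *flc*, a rise of 3.18 ± 0.28 or 9.04-fold (adjusted p = 5.34e-10). *BT1* read 7.22, 7.76 and 7.97 in WT and 10.23, 10.77 and 10.77 in *flc*, a rise of 2.94 ± 0.24 (adjusted p = 1.28e-10). *BT5* read 4.93, 6.42 and 6.54 in WT and 8.34, 8.82 and 8.83 in *flc*, a rise of 2.70 ± 0.30 (adjusted p = 1.14e-07). The groups were separate for all 3 genes, as the choice of the largest rises required, and the gap was at least 1.80 (*BT5*). *BT4* changed by 0.89 (adjusted p = 0.0151) and *BT3* by -0.20, so 3 of the 5 members were called, all higher.

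Of 24 genes induced by darkness or sugar starvation, 10 were called higher (41.7%, against 0.729% of all genes) and none lower, and the median over the list was 1.04 against -0.02 for all genes. *BXL1*, a beta-xylosidase of the cell wall, read 4.82, 6.0 and 7.02 in WT and 7.65, 8.25 and 8.13 in *flc* (change 2.06 ± 0.38, adjusted p = 0.000351). *DRM1*, a marker of bud dormancy, read 7.68, 8.55 and 8.94 in WT and 10.46, 10.61 and 9.87 in *flc* (change 1.92 ± 0.26, adjusted p = 3.39e-06). *DIN10*, of the raffinose synthase family, read 5.42, 6.23 and 6.81 in WT and 7.70, 8.15 and 8.07 in *flc* (change 1.82 ± 0.31, adjusted p = 0.000141). In each of these genes WT replicate 1 was the lowest array, the groups did not overlap and the WT arrays were more spread than the *flc* arrays. *KMD3* and *KMD1*, F-box proteins that bring phenylpropanoid enzymes and cytokinin-response regulators to degradation, rose by 1.69 ± 0.22 and 1.57 ± 0.30. The other called members were *SIP2* (1.55), *BGAL4* (1.51), *EXL2* (1.4), the sugar transporter gene *STP1* (1.38) and *MCCA* (1.02), a subunit of an enzyme of leucine breakdown. *DIN1*, the classical dark-inducible marker, went from 8.19 to 10.39 but missed the limit (adjusted p = 0.0131), as did the asparagine synthetase gene *ASN1* (change 1.27, adjusted p = 0.0183). Per array, the median over the 24 genes was 5.54, 5.95 and 6.30 in WT and 7.06, 7.10 and 6.95 in *flc*. Without WT replicate 1, 7 members were called and the median was 0.96; *BXL1* and *KMD1* were then among those not called (adjusted p = 0.0138 and 0.0294).

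Calls were also made among regulators of the response to low carbon. Class II trehalose phosphate synthases are regulatory relatives of the enzyme that makes the sugar signal trehalose 6-phosphate. *TPS11* read 4.64, 5.18 and 5.66 in WT and 7.29, 7.45 and 7.06 in *flc*, a rise of 2.11 ± 0.18 (adjusted p = 2.4e-10). *TPS8* read 4.31, 5.18 and 5.71 in WT and 6.96, 6.97 and 6.96 in *flc*, a rise of 1.90 ± 0.22 (adjusted p = 3.29e-07). *TPS9* read 3.76, 3.99 and 4.13 in WT and 5.15, 5.35 and 5.14 in *flc*, a rise of 1.25 ± 0.12 (adjusted p = 4.11e-09). Of the remaining members of this class, *TPS10* changed by 0.82, *TPS5* by -0.67, *TPS6* by 0.35 and *TPS7* by 0.01, so 3 of 7 were called. *TPS8* was nearly equal on the 3 *flc* arrays, while WT replicate 1 was the lowest WT array for all 3 called genes. SnRK1 is the kinase that is active when carbon is short. Its catalytic subunit genes *KIN10* and *KIN11* changed by 0.12 and -0.07, whereas *AKINBETA1*, a beta subunit, read 6.28, 7.53 and 8.16 in WT and 8.76, 9.26 and 8.87 in *flc* and rose by 1.64 ± 0.25 (adjusted p = 3.1e-05). The rise of *AKINBETA1* was as low as 1.15 when single arrays were left out, although its call was kept each time. *KING1*, of the gamma-subunit family, rose by 1.01 ± 0.16, at the fold limit, and fell under it without any of 4 arrays. *bZIP1* and *bZIP63* encode transcription factors of the low-energy response. *bZIP1* read 5.89, 6.35 and 6.78 in WT and 7.89, 8.23 and 8.01 in *flc* (change 1.70 ± 0.27, adjusted p = 4.85e-05). *bZIP63* read 6.26, 8.10 and 8.47 in WT and 8.72, 9.35 and 9.23 in *flc* (change 1.49 ± 0.34, adjusted p = 0.00446), and its change was 0.86 (adjusted p = 0.134) without WT replicate 1. The call of *bZIP63* was also lost without *flc* replicate 2 or 3. Of 9 *ATG8* genes, whose products build autophagosomes, *ATG8E* alone was called (change 1.43 ± 0.24, adjusted p = 8.9e-05), and its change was 0.97 without WT replicate 1.

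Among nutrient genes, the calls in the nitrate list were all higher, and the few in the phosphate list were lower. Of 17 nitrate-response genes 5 were called (3 without WT replicate 3), all higher, against 0.729% of all genes, with a list median of 0.36. *LBD38* and *LBD37*, which encode LOB-domain repressors of nitrogen-responsive and anthocyanin genes, had groups that did not overlap. *LBD38* read 8.43, 8.26 and 7.97 in WT and 9.51, 9.69 and 9.74 in *flc*, a rise of 1.43 ± 0.12 (adjusted p = 4.07e-10). *LBD37* read 7.02, 7.69 and 7.49 in WT and 8.65, 8.72 and 8.87 in *flc*, a rise of 1.35 ± 0.13 (adjusted p = 2.83e-09). The myb-like factor genes AT1G25550 and AT1G68670 rose by 1.19 ± 0.14 and 1.08 ± 0.14, and *NIA1*, a nitrate reductase, by 1.07 ± 0.19 (adjusted p = 0.000232). *NIA2*, which encodes the major nitrate reductase, changed by 0.76 (adjusted p = 7.31e-05), below the fold limit. The calls of AT1G68670 and *NIA1* were lost through the fold limit when either of 2 arrays was left out (lowest changes 0.97 and 0.90). Among 24 phosphate-starvation genes 2 were called, both lower, against 0.1% of all genes called lower, and 22 were not called. *SPX1*, a phosphate sensor that restrains the starvation response, read 7.90, 7.41 and 7.22 in WT and 5.38, 5.66 and 6.64 in *flc*, a fall of 1.62 ± 0.22 (adjusted p = 4.97e-06). *PAP17*, a secreted acid phosphatase, read 8.12, 7.49 and 6.97 in WT and 6.04, 5.92 and 6.47 in *flc*, a fall of 1.38 ± 0.25 (adjusted p = 0.000224). In both genes every *flc* array lay below every WT array, as the choice of the largest falls required. *SPX4* changed by 0.67, and the list's median was -0.15.

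**Figure D3:**
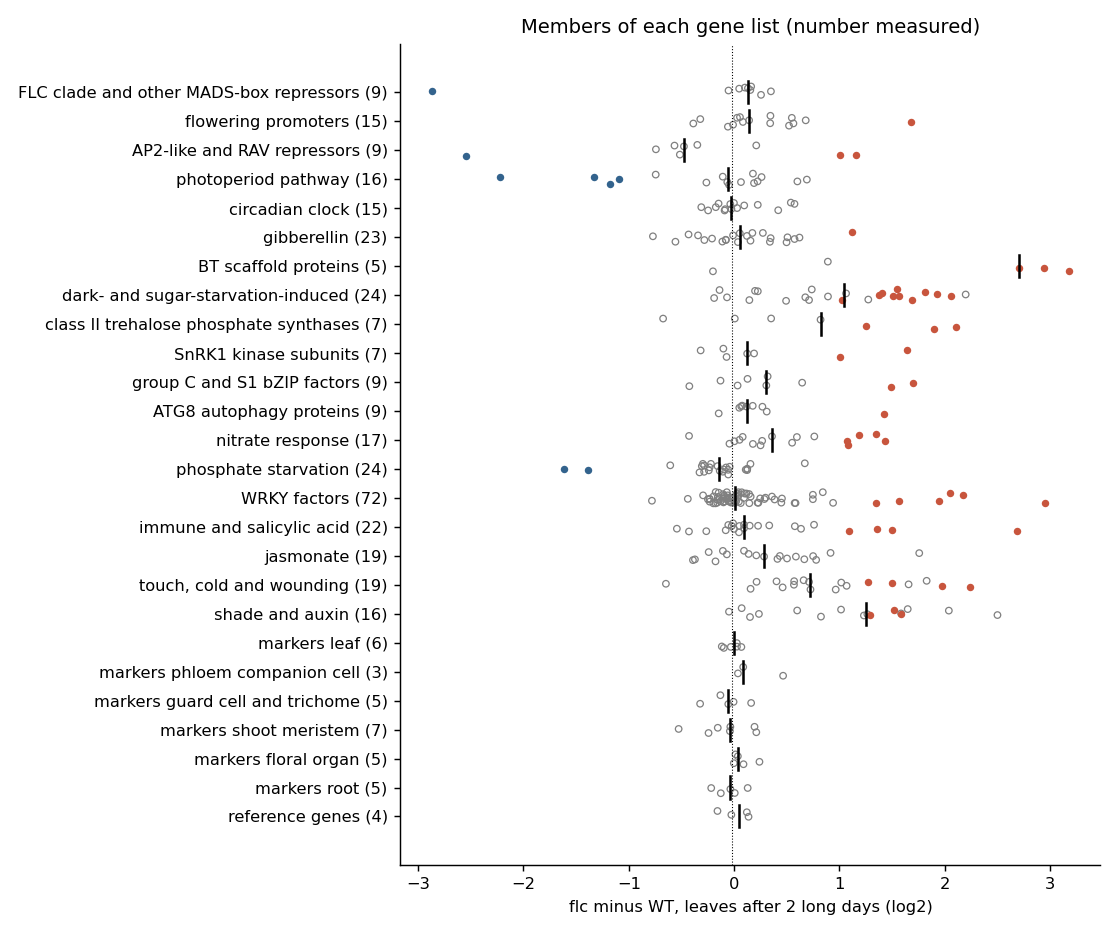
Change between *flc* and WT in LD leaves (log2, horizontal axis) of each measured member of 26 gene lists, with called members filled (red higher, blue lower), others open, the list median as a black bar and the median of all genes as a dotted line. The medians of the BT proteins (2.70), the starvation genes (1.04) and the shade and auxin genes (1.25) lay farthest to the right.

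WRKY factors regulate defence and leaf senescence. Of 72 genes with a WRKY symbol 6 were called, all higher, or 8.33% against the 0.729% of all genes called higher, and 3 were called without WT replicate 3, while the family's median change was 0.01. *WRKY53*, a regulator of senescence, read 4.99, 4.85 and 4.39 in WT and 7.25, 7.50 and 8.35 in *flc*, a rise of 2.96 ± 0.37 or 7.77-fold (adjusted p = 1.29e-06). *WRKY22*, which acts in basal defence, read 5.51, 6.31 and 6.02 in WT and 7.15, 8.35 and 8.50 in *flc*, a rise of 2.05 ± 0.30 (adjusted p = 1.36e-05). For both genes the WT and *flc* arrays were separate, which for *WRKY53* was a condition of its choice among the largest rises. *WRKY40*, *WRKY33* and *WRKY18*, which act in responses to pathogens, rose by 2.17 ± 0.53, 1.95 ± 0.44 and 1.57 ± 0.31, and *WRKY15* by 1.35. The calls of *WRKY40* and *WRKY33* were each lost without any of 5 of the 6 arrays (adjusted p up to 0.064 and 0.0419), and that of *WRKY18* without *flc* replicate 1 or WT replicate 3. Of 22 further genes of immunity and salicylic acid 4 were called higher (2 without *flc* replicate 3), with a median of 0.09 for the list. *CYP81F2*, a cytochrome P450 of indole glucosinolate synthesis, read 5.42, 5.46 and 4.68 in WT and 7.80, 7.76 and 8.08 in *flc*, a rise of 2.69 ± 0.37 (adjusted p = 4.77e-06). *SYP122*, a syntaxin of the plasma membrane, read 5.37, 5.55 and 5.69 in WT and 7.10, 7.06 and 6.96 in *flc*, a rise of 1.5 ± 0.21 (adjusted p = 4.73e-06). *MYB51*, an activator of indole glucosinolate genes, rose by 1.36 ± 0.27, and *NHL3*, a membrane protein gene raised by pathogens, by 1.09 ± 0.26. The *MYB51* call was lost without *flc* replicate 3 (adjusted p = 0.0143) and the *NHL3* call without any of the 6 arrays (up to 0.0515). *PR1*, a marker of the salicylic acid response, changed by -0.54 and was not called.

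Touch, cold and wounding genes, shade and auxin genes and jasmonate genes were less even among the *flc* arrays. Of 19 genes of touch, cold and wounding 4 were called higher, and 2 when replicate 2 or 3 of either group was left out. *NAC055*, a NAC factor of the stress response, read 3.66, 3.53 and 4.10 in WT and 5.48, 6.51 and 6.03 in *flc*, a rise of 2.24 ± 0.29 (adjusted p = 1.46e-06). *RD26*, a NAC factor raised by drought, read 5.78, 5.33 and 5.20 in WT and 7.72, 7.28 and 7.23 in *flc*, a rise of 1.97 ± 0.26 (adjusted p = 2.59e-06). The calmodulin-like gene *TCH3* rose by 1.5 ± 0.36 and the cold-response factor gene *CBF1* by 1.27 ± 0.31. *TCH3* lost its call without any of the 6 arrays (adjusted p up to 0.0296) and *CBF1* without any of 4 (up to 0.0983). Of 16 shade and auxin genes, *PAR1* (1.59 ± 0.34), *IAA2* (1.52 ± 0.27) and the HD-Zip gene *HAT3* (1.29 ± 0.23) were called, all higher. *ATHB2*, the classical shade-induced homeobox gene, had a larger change of 2.50 but an adjusted p of 0.0525. *PAR1* lost its call without WT replicate 1, WT replicate 2 or *flc* replicate 2 (adjusted p up to 0.0488). The per-array medians over the shade and auxin list were 5.69, 5.74 and 6.07 in WT and 6.26, 7.80 and 7.14 in *flc*. *flc* replicate 1 was thus the lowest *flc* array, and without it 7 of the 16 genes were called and the list's median rose from 1.25 to 1.64. For touch, cold and wounding the medians were 5.78, 6.10 and 6.09 in WT and 6.13, 7.24 and 7.19 in *flc*, again with *flc* replicate 1 nearest to WT. The 19 jasmonate genes had medians of 6.5, 6.6 and 6.65 in WT and 6.23, 7.90 and 7.22 in *flc*, where replicate 1 was below all WT arrays. The part of *flc* replicate 1 in these lists was not tested further. None of the jasmonate genes was called with all arrays, 1 without *flc* replicate 1 and 2 without *flc* replicate 3. The one with the largest change, *JAZ7*, a repressor of the jasmonate response, changed by 1.76 (adjusted p = 0.0134).

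**Figure D4:**
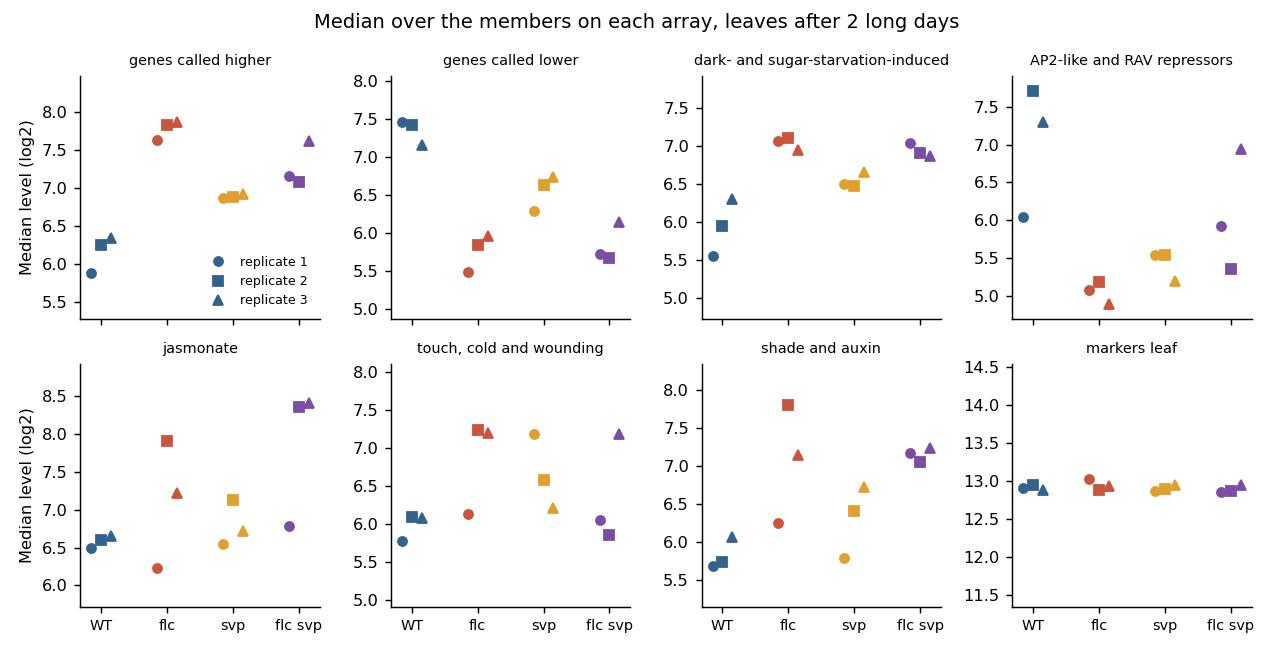
Median over the members (log2 expression value, vertical axis) on each of the 12 LD leaf arrays, by genotype and replicate number, for the genes called in *flc* and for 6 gene lists. The first panels show genes chosen by the WT and *flc* arrays themselves; among WT arrays the starvation genes lay lowest on replicate 1 (5.54, 5.95 and 6.30), and jasmonate, touch and shade genes lower on *flc* replicate 1 than on the other *flc* arrays.

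Several of the largest changes were in genes outside these lists. AT1G69480, of the EXS family, read 2.95, 3.04 and 2.90 in WT and 5.68, 6.4 and 6.23 in *flc*. It was thus below the array medians in WT and above them in *flc*, and rose by 3.14 ± 0.23 or 8.84-fold (adjusted p = 1.58e-11). AT5G22920, a zinc finger protein gene, read 5.83, 8.13 and 8.67 in WT and 10.61, 10.77 and 10.54 in *flc*, a rise of 3.10 ± 0.38 that was 2.29 without WT replicate 1. *PP2-B13*, a lectin of the phloem protein 2 family, read 3.71, 3.54 and 3.09 in WT and 5.50, 6.61 and 7.42 in *flc*, a rise of 3.07 ± 0.49 with the *flc* arrays widely spread. AT2G20670, a protein of unknown function, read 6.17, 8.93 and 9.10 in WT and 10.52, 10.82 and 10.77 in *flc*. Its rise of 2.64 ± 0.49 became 1.75 (adjusted p = 0.0154) without WT replicate 1, and the call was lost. The VQ-motif gene AT2G22880, AT1G05575 and the glycosyltransferase gene AT1G05675 rose by 2.65 ± 0.53, 2.62 ± 0.47 and 2.61 ± 0.46, the first of them not called without WT replicate 1 or *flc* replicate 3 (adjusted p up to 0.0201). With the 24 leaf arrays fitted alone none of these 3 genes was called (adjusted p = 0.0467, 0.0116 and 0.0212). They were among 16 of 60 named called genes that lost their call in that fit. The others were *BXL1*, *KMD1*, *CBF1*, *CDF1*, *CDF3*, *MYB51*, *NIA1*, *PAR1*, *TEM1*, *WRKY18*, *WRKY33*, *WRKY40* and *bZIP63*.

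Among the falls outside the lists, *QQS* (AT3G30720), an Arabidopsis-specific protein that affects starch content, read 9.07, 9.18 and 9.29 in WT and 6.67, 7.27 and 6.98 in *flc*. It fell by 2.20 ± 0.19 or 4.61-fold (adjusted p = 2.55e-10). AT2G44940, which encodes an integrase-type DNA-binding protein, read 8.06, 7.46 and 7.65 in WT and 5.48, 5.90 and 6.16 in *flc*, a fall of 1.88 ± 0.16 (adjusted p = 4.59e-10). The aspartyl protease gene AT2G39710 fell by 1.39 ± 0.19 and *TINY2*, a DREB-type transcription factor, by 1.33 ± 0.23. In both the *flc* arrays lay below all WT arrays, which was a condition of their choice.

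The same contrast in SD leaves, on other arrays, asked whether the changes depended on the LDs. Per the labels, SD plants spent 2 further SDs where LD plants spent the 2 LDs. In SD leaves 553 genes were called (1.78% of those tested), 458 higher (1.48%) and 95 lower (0.306%). Of the 257 genes called in LD leaves, 175 (68.1%) were also called in SD leaves in the same direction, 152 higher and 23 lower, which is 31.6% of the SD calls, and 0 in the opposite direction. The genes that rose in LD leaves had a median change of 1.43 in SD leaves, and those that fell -1.4. *BT2* rose by 2.82 in SDs and 3.18 in LDs, AT1G69480 by 2.59 and 3.14, *SOC1* by 1.84 and 1.68, and *QQS* fell by 2.38 and 2.20. The difference between the 2 effects was called for 31 genes (0.1%), and for 29 of them (0.0935%) the effect was lower in LDs. *WRKY18* rose by 4.51 in SD leaves against 1.57 in LD leaves (difference -2.94, adjusted p = 0.000357). *XTH18*, a xyloglucan-modifying enzyme of the cell wall, changed by 3.44 in SDs and 0.65 in LDs (difference -2.79, adjusted p = 0.0057), and *HIR2*, a gene of the hypersensitive-induced reaction family, by 3.96 and 1.56 (difference -2.40, adjusted p = 0.000834). The other 2 (0.00645%) had the larger effect in LDs: *RMA1*, a membrane-anchored ubiquitin ligase, changed by 0.03 in SDs and 1.31 in LDs (difference 1.28, adjusted p = 0.00223), and AT2G38820 by 0.14 and 1.21 (difference 1.06, adjusted p = 0.00812). The count was 9 with the 24 leaf arrays fitted alone, 4 with only the 12 arrays compared, and ranged from 13 (without *flc* SD leaf replicate 2) to 61 (without *flc* SD leaf replicate 1).

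In LD apices the same contrast called 20 genes (0.0645%), 13 higher (0.0419%) and 7 lower (0.0226%). Of these, 17 were also called in LD leaves in the same direction, which is 85% of the apex calls and 6.61% of the leaf calls. *FLC* fell by 2.59 in apices and *QQS* by 2.37, *BT2* rose by 2.46 and *SOC1* by 1.1. The genes that rose in LD leaves had a median change of 0.37 in LD apices. In SD apices 23 genes were called (0.0742%), 9 higher (0.029%) and 14 lower (0.0452%), of which 11 were called in LD leaves in the same direction. The effect differed between leaf and apex for 19 genes (0.0613%), and was the higher in the leaf for 18 (0.0581%) and the lower for 1 (0.00323%). AT1G69480 changed by 0.69 in apices (difference 2.46, adjusted p = 9.87e-05). *BCB*, a blue copper-binding protein, rose from 7.0, 7.07 and 7.16 to 9.35, 9.27 and 9.01 in leaves and changed by -0.17 in apices (difference 2.30, adjusted p = 0.00565), and *NAC055* changed by 0.08 there (difference 2.16, adjusted p = 0.00767). *LBD38* and *LBD37* changed by 0.41 and 0.34 in apices (differences 1.03 and 1.01). The gene in the other direction was AT3G27540, which fell by 1.18 in leaves and changed by -0.05 in apices (difference -1.13, adjusted p = 0.00856). The count was 26 with the 24 LD arrays fitted alone, 12 of them shared with the 19, and 9 with the arrays of these 4 groups alone. It fell to between 5 (without WT LD apex replicate 2) and 15 when single arrays were left out.

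The effect of losing *FLC* was then read in leaves that lacked *SVP*, as the double mutant minus the *svp* single mutant. This contrast called 81 genes (0.261%), 62 higher (0.2%) and 19 lower (0.0613%). Of the 257 genes called with functional *SVP*, 21 (8.17%) were called here in the same direction and 5 in the opposite direction. The genes that rose with functional *SVP* had a median change of 0.23 without it. The effects with and without *SVP* differed for 124 genes over the whole array (0.4%), 100 of them (0.323%) with the higher effect where *SVP* was functional and 24 (0.0774%) with the lower. They included 75 of the 226 genes that rose in *flc*, which were chosen on arrays that also enter the difference. The count of differences was 44 with the 24 leaf arrays fitted alone, 11 with the 12 arrays compared alone, 72 without WT replicate 1 and 62 without double mutant replicate 2. *SOC1* was among the genes that rose in both settings, by 1.68 with *SVP* and by 1.03 without it (adjusted p = 3.24e-06), whereas *TPS11* changed by 1.00 without it, just under the fold limit (adjusted p = 0.000811). *SPX1* fell by 1.62 with *SVP* and by 1.45 without it, and AT3G44450 by 2.22 and 1.36.

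*BT2* changed by 0.28 without *SVP*, against 3.18 with it (difference 2.89, adjusted p = 2.29e-05). Its mean level was 7.82 in WT, 10.997 in *flc*, 10.35 in *svp* and 10.63 in the double mutant, so all 3 mutants were above WT. *WRKY53* had levels of 4.74 in WT, 7.70 in *flc*, 7.04 in *svp* and 6.71 in the double mutant (difference of effects 3.28, adjusted p = 0.000276). Other genes had high means in the single mutants and a lower mean in the double mutant. AT1G69480 had levels of 2.96 in WT, 6.11 in *flc*, 4.83 in *svp* and 2.92 in the double mutant, so that losing *FLC* raised it by 3.14 with *SVP* and changed it by -1.91 without (difference 5.05, adjusted p = 2.17e-13). *BT5* changed by 2.70 with *SVP* and -1.21 without (difference 3.91, adjusted p = 3.15e-07), AT2G20670 by 2.64 and -0.99 (difference 3.63, adjusted p = 0.00249), and *RAV1* by 1.00 and -1.5 (difference 2.50, adjusted p = 8.66e-06).

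The largest differences of effects in the negative direction were in *QQS*, *SADHU3-2* and *TEM2*. *QQS* fell by 2.20 with functional *SVP* and rose by 2.65 without it (difference -4.85, adjusted p = 1.89e-15). Its mean levels were 9.18 in WT, 6.98 in *flc*, 7.68 in *svp* and 10.33 in the double mutant, which was the highest. The transposable element gene *SADHU3-2* had levels of 5.87, 5.33, 6.12 and 10.23 in the same order (difference -4.66, adjusted p = 4.97e-16). The genotypes were separate lines, and whether line differences other than the mutations had a part in these levels was not tested. *TEM2* had levels of 6.97, 4.43, 3.97 and 6.0, lower in both single mutants than in WT and higher in the double mutant than in either (difference -4.58, adjusted p = 1.23e-06). *FT* was highest in the double mutant. It changed by 0.52 with *SVP* and rose by 1.74 without it (adjusted p = 3.28e-09; difference -1.22, adjusted p = 0.00141), with levels of 2.67 in WT, 3.19 in *flc*, 2.79 in *svp* and 4.53 in the double mutant.

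**Figure D5:**
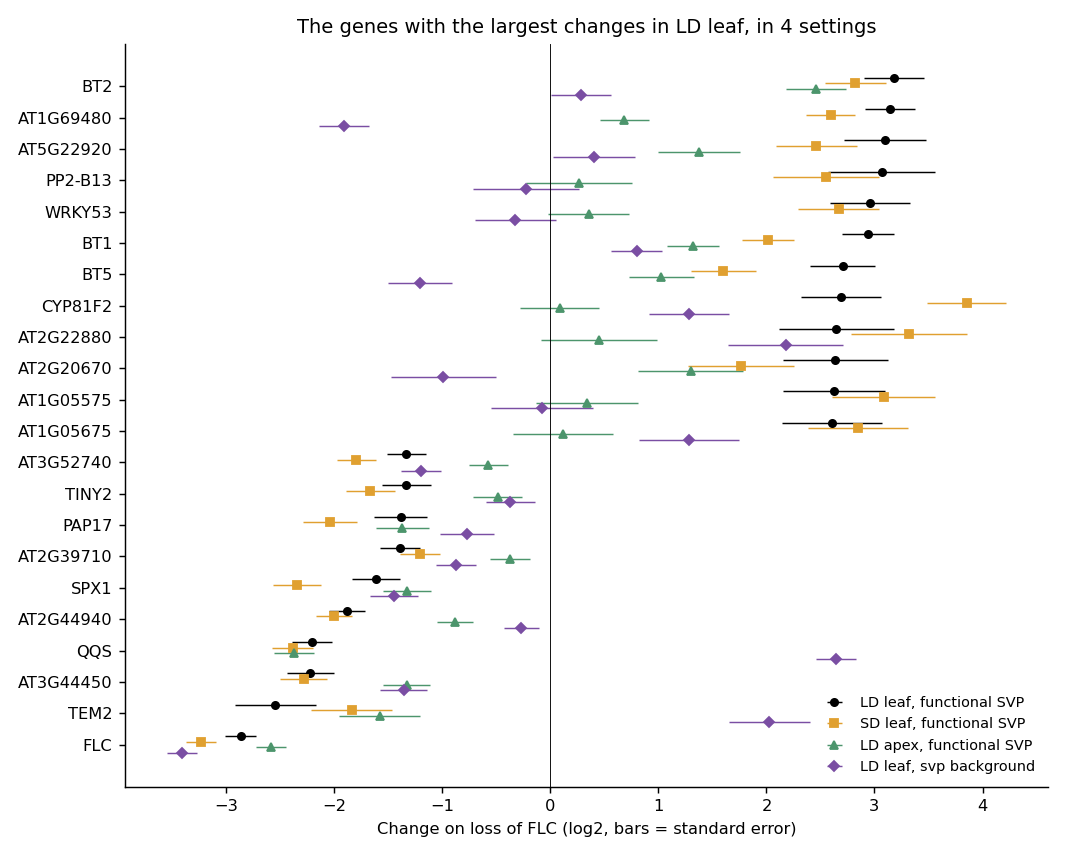
Change on loss of *FLC* (log2, horizontal axis, with the standard error of the fit) of the 12 genes with the largest rises and the 10 with the largest falls in LD leaves, in 4 settings. The genes were chosen by the LD leaf values (black); the SD leaf values (yellow) lay on the same side of 0 for all 22, whereas in the *svp* background (purple) several genes had the opposite sign, among them *QQS* (2.65), *TEM2* (2.03) and AT1G69480 (-1.91).

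Set directly against each other, *flc* and *svp* leaves in LDs differed in 77 genes (0.248%), 65 of them higher in *flc* (0.21%) and 12 lower (0.0387%). The count was 42 with the 24 leaf arrays fitted alone and 7 with the 6 arrays compared alone. The mutated genes were among those that differed: *FLC* was lower in *flc* by 3.18 and *SVP* higher by 1.08. The *svp* leaves had a *SVP* level of 7.36 against 8.29 in WT. *PLA2A*, a defence-related lipase gene, was higher in *flc* than in *svp* by 2.33 (adjusted p = 6.91e-08), with levels of 7.35 in WT, 8.03 in *flc* and 5.70 in *svp*. Against WT it was called lower in *svp* (change -1.65) and not called in *flc* (change 0.68). The MATE efflux gene AT3G23550 was higher in *flc* than in *svp* by 2.07 (adjusted p = 0.000787), with 5.94 in WT, 7.58 in *flc* and 5.50 in *svp*. *PIN1AT*, a peptidyl-prolyl isomerase, differed by 2.87, with levels of 9.78 in WT, 9.79 in *flc* and 6.92 in *svp*. *SEP3*, a MADS-box gene of floral organ identity, was lower in *flc* by 2.01, with 3.73 in WT, 3.72 in *flc* and 5.74 in *svp*, and AT2G13547 was lower by 3.88. *PIN1AT* (AT2G18040), *PLA2A* (AT2G26560) and AT2G13547 lie on the same chromosome as *SVP* (AT2G22540). Loci around *SVP* were not examined as those around *FLC* were, so a part of linked differences between the lines was not tested. Against WT, on the same WT arrays, *svp* leaves had 57 calls (0.184%), 36 higher (0.116%) and 21 lower (0.0677%), and double mutant leaves 265 (0.855%), 184 higher (0.593%) and 81 lower (0.261%). Relative to these shared WT arrays, *flc* and *svp* changed *SOC1* by 1.68 and 1.69, *BT2* by 3.18 and 2.53, *WRKY53* by 2.96 and 2.29, *TPS11* by 2.11 and 0.95, and *TEM2* by -2.55 and -3.0. For *TPS11* the difference between the mutants was itself called (1.16, adjusted p = 7.23e-05), and for *SOC1* it was -0.0039 ± 0.13.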

How the data were processed

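RNA of 48 samples (16 groups of 3 biological replicates) had been hybridised to AGRONOMICS1 tiling arrays. The deposited values are log2 expression levels per locus, which the authors obtained by robust multi-array averaging, and 31004 loci entered the tests, of which 30484 matched a locus tag in the RefSeq TAIR10.1 table. Array number limits the precision. With limma 3.58.1 in R 4.3.3, 1 mean per group was fitted on all 48 arrays with replicate number as a random block (intra-block correlation 0.0336), as in the study's methods. Unlike there, where Storey q-values were used, p-values were adjusted by Benjamini and Hochberg over all loci for each contrast. Fits without an array reused this correlation. The script was tested on simulated data. Named genes were *FLC*, *SVP*, *FT*, *SOC1*, *TEM1* and *TEM2*, the 12 largest rises and 10 largest falls without overlap, up to 5 called members of each list and the 3 largest called differences each way; others were chosen after their values were seen. Members and lists were chosen with earlier results of these data known. Alternatives changed the block, arrays, filter, centring, trend, adjustment and threshold. Lists of WRKY and VQ genes came from symbols, and only 2 VQ genes matched. No sequence or promoter was used here.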

Additional observations from a re-analysis of the deposited data

Results flagged for a closer look

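For 38 values of named genes the effect of losing *FLC* itself differed between settings by more than 2-fold with an adjusted p below 0.01 in limma. Between LD and SD leaves there were 5. *RMA1* (1.28) and AT2G38820 (1.06) had the higher change in LDs, and *HIR2* (-2.40), *XTH18* (-2.79) and *WRKY18* (-2.94) the lower. Between LD leaf and LD apex there were 6, with differences of 2.46 for AT1G69480, 2.30 for *BCB*, 2.16 for *NAC055*, 1.03 for *LBD38*, 1.01 for *LBD37* and -1.13 for AT3G27540.

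Between leaves with functional *SVP* and leaves without it there were 27. The largest positive differences were 5.05 for AT1G69480, 3.91 for *BT5*, 3.63 for AT2G20670, 3.29 for *PP2-B13* and 3.28 for *WRKY53*. Genes of the sugar and nitrogen lists followed with 2.89 for *BT2*, 2.68 for *KMD1*, 2.22 for *KMD3*, 2.15 for *BT1*, 1.79 for *TPS8*, 1.64 for AT1G25550, 1.57 for *ATG8E*, 1.34 for *LBD37* and 1.24 for *LBD38*. The RAV genes *RAV1* and *TEM1* differed by 2.50 and 2.20, and the stress and defence genes *WRKY22*, *RD26* and *NAC055* by 2.01, 1.87 and 1.87. AT5G22920 differed by 2.69, *RMA1* by 1.84 and AT2G38820 by 1.05. The negative differences were -1.22 for *FT*, -1.61 for AT2G44940, -4.58 for *TEM2*, -4.66 for *SADHU3-2* and -4.85 for *QQS*. All but *FT* and *SADHU3-2* had themselves been called between *flc* and WT on arrays that enter these differences.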

How the results depend on the processing

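Of 60 named genes called in *flc* leaves, none reversed under any alternative, 38 kept their call whichever of the 6 arrays was left out and 22 lost it at least once. Most of them were chosen from the calls by the size of their change, so a reversal was unlikely from the start. Of all 257 called genes, 187 (without WT replicate 1) to 222 (without WT replicate 2) were still called when a single array was left out. The 257 calls became 191 with the 24 leaf arrays fitted alone, where 16 of the 60 genes were lost, 49 with the 6 arrays fitted alone (45 higher), which kept 13 of the 60 genes, 889 without a fold limit and 13 by limma's treat test. Without single arrays the count ranged from 213 to 276, and it was 194 without both arrays numbered 1, an alternative added after seeing the data, as were the list counts without single arrays.

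The difference from SD leaves (31 genes) became 9 with the 24 leaf arrays, 4 with only the arrays compared and 0 by treat, and 13 to 61 without single arrays (20 without WT SD replicate 2 or *flc* LD replicate 2, 19 without *flc* LD replicate 3). The difference from apices (19) became 26 with the 24 LD arrays (12 shared), 9 with only the arrays compared and 0 by treat, and 5 to 15 without single arrays. It was at most 11 without WT leaf replicate 1, *flc* leaf replicate 2 or 3, WT apex replicate 2 or 3, or any *flc* apex array. The difference between leaves with and without *SVP* (124) became 44, 11 and 6 under the same 3 alternatives and 62 to 142 without single arrays. *flc* against *svp* (77) became 42, 7 and 4, 462 without a fold limit, and 52 to 91 without single arrays. The causes were not tested, except that the smaller fits held fewer arrays.

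In the labels same-numbered WT and *flc* arrays shared only a number, which the study's model took as the biological replicate. Their deviations correlated at 0.337, 0.0543 and 0.082, and not every array correlated best with its own number. Between differently numbered arrays the correlations ran from -0.271 to 0.206. Whether same-numbered arrays shared a batch was not tested. Without the replicate block the counts were 250, 26, 15, 108 and 72 in the order above, and with it as a fixed term 270, 31, 21, 144 and 87.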

Other observations

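The jasmonate and touch lists were also read in the other settings, without a test of the difference between settings. In SD leaves 10 of 19 jasmonate genes were called higher in *flc*, with a median change of 1.18 against 0.28 in LD leaves, and in LD leaves lacking *SVP* 5 were called higher, with a median of 0.97. Of the touch, cold and wounding genes 7 of 19 were called higher and 1 lower in SD leaves, with a median of 1.2. In LD leaves lacking *SVP* 0 of them were called, and their median was -0.14. Of all genes, 1.48% were called higher and 0.306% lower in SD leaves, and 0.2% were called higher in leaves lacking *SVP*. The medians over all genes were -0.03 in SD leaves and -0.0042 in leaves lacking *SVP*. None of the 5 guard cell and trichome markers, the 4 reference genes or the 2 matched VQ genes was called in LD leaves.

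Further families were picked after their values were seen, so their counts carry no test either, and 0.729% of all genes were called higher. Of 31 genes of phloem protein 2 lectins 3 were called higher. *PP2-A13* read 6.04, 7.24 and 7.63 in WT and 8.67, 9.18 and 9.06 in *flc* (change 2.00 ± 0.33), and *PP2-A5* changed by 1.88. Of 20 purine permeases, transporters of nucleobases and cytokinins, 3 were called higher, and 1 without WT replicate 1, *flc* replicate 2 or *flc* replicate 3, with *PUP18* at 6.5, 7.97 and 8.0 in WT and 9.12, 9.39 and 9.10 in *flc* (change 1.71 ± 0.27). Of 31 B-box zinc finger genes, a family that holds regulators of light signalling, 2 were called higher, *BBX17* by 1.79 and *BBX14* by 1.03, and 1 without *flc* replicate 1. Of 45 cysteine-rich receptor kinases 3 were called higher, of 26 CBL-interacting kinases 2 (*CIPK3* by 1.38 and *CIPK21* by 1.29, 1 of them without WT replicate 3). Of 100 NAC factors 2 were called higher, both already described (4 without *flc* replicate 1). None of 77 *SAUR* genes and none of 33 xyloglucan hydrolase genes was called with all arrays, against 1 of each without WT replicate 3 and 1 xyloglucan hydrolase gene without *flc* replicate 3.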
